A study of Mus musculus with 4 samples.

Results

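The angiopoietin and Tie system was read here through 5 genes, taken by symbol from the 23282 entries of the count tables: the receptor genes Tek (which encodes Tie2) and Tie1, the ligand genes Angpt1 and Angpt2, and Ptprb, which encodes the phosphatase VE-PTP. Each of the 5 symbols stood on 1 line, and all 5 passed the filter on low counts. Endothelial cells (ECs), which line vessels, were sorted from uninjured C57BL/6J mice 8 weeks of age, from the brain parenchyma (2 libraries) and from the dura mater, the outer membrane around the brain (2 libraries, called dura below). No treatment, transgene or mutant allele is given for either tissue. Sorting took CD31+ cells without CD45 and TER-119, and brain cells alone were enriched on magnetic beads beforehand, so that this step cannot be told apart from tissue. The labels do not say whether the libraries of a tissue came from separate mice, and p-values therefore measure only the spread between these libraries, which may be technical. The study deleted Tek in ECs and followed vessel regrowth after head injury. By staining, it readily found Tie2 protein in uninjured vessels of both tissues and hardly found Angpt2 protein in either. After injury, Tie2 staining fell in dura vessels and rose in brain vessels, while that of Angpt2 and VE-PTP rose in both. The libraries here hold ECs of both tissues without injury.

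Tie2 is a receptor tyrosine kinase of ECs that keeps vessels quiescent and sealed. Angpt1, secreted mainly by mural cells, stromal cells and platelets, activates it, while Angpt2, made and stored by ECs themselves, acts mostly as a context-dependent antagonist and is induced in sprouting and inflamed vessels. Tie1 binds no angiopoietin with high affinity and modulates Tie2 within a complex, and VE-PTP removes phosphate from Tie2, from VEGFR2 and from the VE-cadherin junction complex. Below Tie2, the kinase Akt inactivates the transcription factor FOXO1, which itself switches on Angpt2.

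Libraries held from 13518973 to 16096203 counts. Replicates differed widely: over the 9347 genes tested, the median absolute difference between replicates was 1.43 on the log2 scale in brain ECs and 1.14 in dura ECs, and the common biological coefficient of variation was 1.39. Of 6398 symbols with at least 100 counts in brain replicate 2, 673 (10.5%) had 0 counts in brain replicate 1. The endothelial identity of the sort was checked with 12 markers that leave out the Tie genes. Of these, 12, 11, 12 and 12 had more than 3 counts in brain replicates 1 and 2 and dura replicates 1 and 2, and their summed level ranged from 10834 to 13933 CPM (the usual depth-scaled count, here with trimmed-mean library sizes) in brain ECs and from 9196 to 11144 CPM in dura ECs. The 9 leukocyte markers summed to 1.66 and 50.9 CPM in brain and to 51.3 and 38.5 CPM in dura ECs, with 4, 3, 7 and 3 of them over 3 counts. Ptprc, which encodes CD45, had at most 4 counts in each library, whereas Cd68 had 4 and 3 counts in brain against 550 and 441 in dura ECs, and Csf1r had 646 in brain replicate 2 (both named after their values were seen). Marker sums of neural cells lay below the endothelial sums, but the astrocyte sums in dura ECs lay above the leukocyte sums there. For astrocytes they were 7.94 to 51.6 CPM in brain and 161 to 418 CPM in dura ECs. For neurons they were 0.897 to 17.8 against 6.06 to 65.3 CPM, and for oligodendrocytes 5.22 to 102 against 47.8 to 119 CPM. Where 26.2% of all genes tested were higher in both dura libraries, so were all 3 astrocyte markers that were tested. These were Slc1a3 (1 and 1 against 915 and 74 counts), Slc1a2 (1 and 0 against 863 and 87) and Gja1 (743 and 103 against 3641 and 2460), named after their values were seen. Slc1a3 and Slc1a2 passed the filter on low counts through the dura libraries alone, so that their being higher there carries no weight. Gja1 made up most of the astrocyte sum in both dura libraries (272 and 151 CPM). The astrocyte markers Gfap and Aldh1l1, also named after their values were seen, were not tested. Gfap had 3 and 0 counts in brain against 189 and 0 in dura ECs, and Aldh1l1 at most 1 count in each library. The defining genes Aqp4 and Rbfox3 had at most 1 count in each library, whereas Mbp had 1476 and 4 counts in brain against 1027 and 6 in dura ECs. Brain barrier genes summed to 23468 to 25578 CPM in brain against 3105 to 3161 CPM in dura ECs, and Slc2a1, the barrier glucose transporter, passed the test as lower in dura ECs (log2 fold change −2.82, edgeR adjusted p 0.0232). Erythroid markers, by contrast, held 1.80% and 2.46% of counts in the brain pair against 0.148% and 0.0773% in the dura libraries. The part of this difference in the values below was not tested.

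None of the 5 genes passed the test between tissues (edgeR's quasi-likelihood test, adjusted p under 0.05), where 0.610% of all genes tested did. At an unadjusted p under 0.05, the count was again 0 of 5 in either direction, where 7.04% of all genes met this level as higher and 2.97% as lower in dura ECs. DESeq2 also called 0 of 5 (12.3% of all genes with an adjusted p), with Angpt1 alone under an unadjusted p of 0.05, as were 21.0% of those genes. limma-voom called 0 of 5 (0.856% of all genes), with Tie1 alone under that level, as were 15.1% of all genes. In levels, the groups did not overlap for 4 genes: Tie1, Ptprb and Angpt1 were higher in both dura libraries than in both brain libraries, as were 26.2% of all genes tested, and Tek was lower, as were 16.9%. Levels were not compared between genes, since counts were not scaled to transcript length.

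Tek (chromosome 4, 94739289 to 94874976, plus strand, GRCm38) was at 508 and 219 CPM in brain replicates 1 and 2, and at 99.3 and 210 CPM in dura replicates 1 and 2. Brain replicate 1 stood highest and dura replicate 1 lowest, and the other two libraries, 1 of each tissue, had nearly the same level. Scaled to plain library size their order turned, with 210 CPM in brain replicate 2 (95% Wilson interval 202 to 217) and 213 in dura replicate 2 (206 to 220), so that the groups then overlapped. These intervals cover counting error only. The means were 363 ± 204 CPM in brain and 155 ± 78.4 CPM in dura ECs (SD, n = 2), and the log2 fold change of dura over brain was −1.23 ± 0.63 (SE) at an adjusted p of 0.558 in edgeR. The 2 brain libraries differed from each other by 2.32 times, about as much as the brain mean differed from the dura mean (2.35 times). Single libraries moved this value: the log2 fold change was −1.79 without brain replicate 2 and −0.56 without brain replicate 1. With all 4 libraries the adjusted p lay between 0.244 and 0.823 over the tests, scalings and filters tried.

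Tie1 (chromosome 4, 118471191 to 118490061, minus strand) ran the other way. It was at 629 and 805 CPM in the brain pair and at 930 and 1692 CPM in the dura libraries. The upper brain library and the lower dura library stood close together, and dura replicate 2 stood apart from the other three. The means were 717 ± 124 and 1311 ± 538 CPM (SD, n = 2), a log2 fold change of 0.87 ± 0.40 (SE) at an adjusted p of 0.482 in edgeR. Its sign held under all 15 alternatives, from 0.36 without dura replicate 2 to 1.13 when libraries were scaled to the endothelial markers. With all 4 libraries its adjusted p lay between 0.245 and 0.577 over the tests, scalings and filters tried.

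Ptprb (chromosome 10, 116275523 to 116389535, plus strand) varied least of the 5 genes. It was at 1440 and 1176 CPM in brain and at 1623 and 1606 CPM in dura ECs, so that the dura libraries lay close together and just above the brain libraries. The log2 fold change was 0.30 (SE 0.29, edgeR adjusted p 0.952), and it lay between 0.10 and 0.56 over the alternatives.

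**Figure D1:**
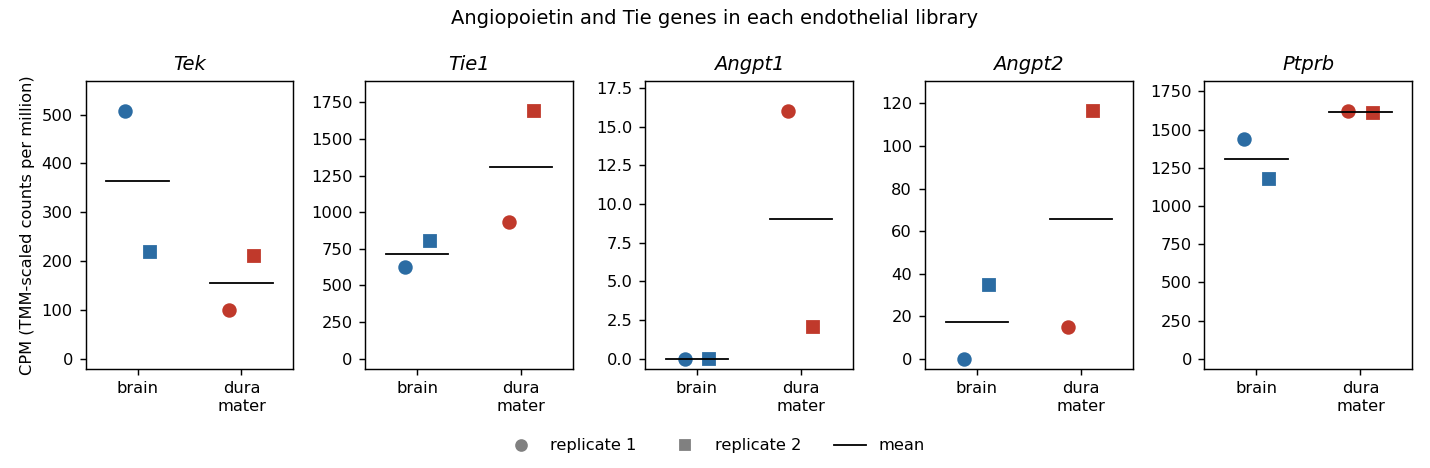
Level of each of the 5 genes in CPM (linear axes, a separate scale for each gene) in brain and dura ECs; circles are replicate 1, squares replicate 2, and bars the mean of the 2 libraries. Tek nearly overlapped between tissues (219 and 210 CPM in the replicate 2 libraries), Tie1 was higher in both dura libraries, and Angpt2 was spread from 0 to 116.6 CPM.

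Because a ratio of 2 genes within a library does not change with library scaling, Tie1 and Ptprb were also set against Tek. There were 1.24 and 3.68 Tie1 counts for each Tek count in brain replicates 1 and 2, and 9.37 and 8.05 in dura replicates 1 and 2. Both dura libraries thus lay above both brain libraries, and the dura pair lay closer together than the brain pair. The mean log2 ratio was 1.09 ± 1.11 in brain ECs and 3.12 ± 0.15 in dura ECs (SD, n = 2), a difference of 2.02, or 4.07-fold. With 2 libraries against 2 the exact two-sided permutation test cannot go below p = 0.333, and it gave 0.333. Leaving out each library in turn gave a difference from 1.24 (without brain replicate 1) to 2.81 (without brain replicate 2). The Ptprb to Tek ratio was 2.84 and 5.37 in the brain pair and 16.3 and 7.64 in the dura libraries, without overlap. Its mean log2 ratio differed by 1.52 between tissues, again with an exact permutation p of 0.333, and leaving out each library gave 0.97 (without dura replicate 1) to 2.07 (without dura replicate 2). Both ratios share the Tek count and are not independent of each other.

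**Figure D2:**
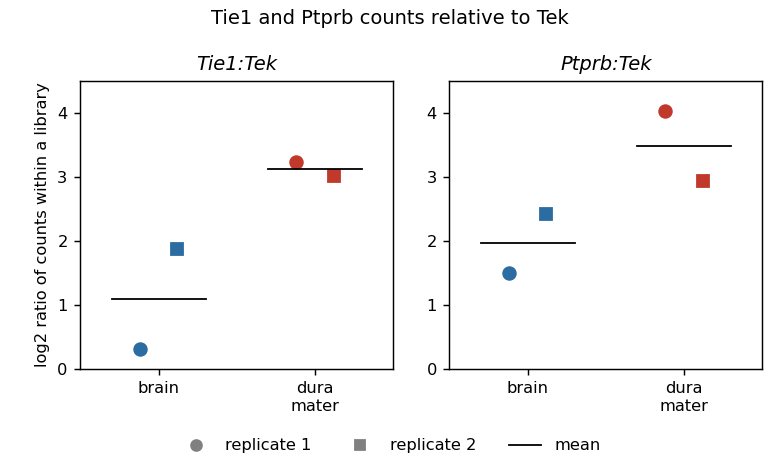
Log2 ratio of Tie1 (left) and Ptprb (right) counts to Tek counts within each library, by tissue; circles are replicate 1, squares replicate 2, and bars the mean. The Tie1 ratio was 3.23 and 3.01 in the dura libraries against 0.31 and 1.88 in the brain libraries.

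Levels were further set against the summed counts of the 12 endothelial markers, since fewer ECs in a sort and less RNA of a gene per EC cannot be told apart in bulk libraries. Tie1 was at 58.0 and 57.7 counts per 1000 endothelial marker counts in the brain pair and at 101 and 152 in the dura libraries. In these terms the brain replicates were almost equal, and both dura libraries lay above them. Tek was at 46.9 and 15.7 in brain ECs and at 10.8 and 18.9 in dura ECs, and the groups overlapped. Ptprb was at 133 and 84.4 against 177 and 144, without overlap. Of the 12 markers, 4 were higher and 4 lower in both dura libraries, as were 26.2% and 16.9% of all genes tested. The largest in each library was Esam, named after its values were seen. It was lower in dura ECs (3343 and 4080 against 1845 and 2329 CPM). The choice of markers mattered: against Pecam1 and Cdh5 alone, which encode CD31 and VE-cadherin, the groups overlapped for Tie1 (696 and 501 per 1000 counts in brain ECs, 558 and 894 in dura ECs). The log2 difference was then 0.26 in place of 1.10 for Tie1, and for Ptprb it turned to −0.25 from 0.59. Tek did not overlap by this measure (562 and 136 per 1000 counts in brain ECs, 59.6 and 111 in dura ECs). Its log2 difference was −1.77 in place of −0.93.

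Angpt1 (chromosome 15, 42424723 to 42676977, minus strand) was counted in dura libraries only. It had 0 counts in both brain libraries, where the floor of 3 counts lies at 0.207 and 0.227 CPM (for counting error only), and 215 and 34 counts in the dura libraries, or 16.0 and 2.08 CPM. The groups did not overlap, yet the 2 dura libraries differed from each other by 7.70 times. Against a floor of 3 counts per brain library, the dura mean of 9.06 ± 9.86 CPM (SD, n = 2) was at least 41.8-fold higher, at least 73.9-fold in replicate 1 and at least 9.60-fold in replicate 2. The edgeR test gave an adjusted p of 0.470, and over the alternatives it ranged from 0.192 to 1.00. Exons of an antisense gene, Gm17473, overlap 14.2% of the exon bases of Angpt1, and counting is not stated to use strand, so its low counts are uncertain.

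Marker genes of cells known to produce Angpt1 were read beside it. The 12 mural cell markers summed to 748 and 1178 CPM in brain and to 1266 and 807 CPM in dura ECs, with 8, 7, 11 and 12 of them over 3 counts in the 4 libraries in the same order. Pdgfrb, the defining pericyte receptor among them, had 355 and 503 counts in brain and 302 and 2038 in dura ECs. The 6 fibroblast markers summed to 7.38 and 50.7 CPM in brain and to 337 and 354 CPM in dura ECs, with 4, 4, 5 and 4 of them over 3 counts, and Col1a1 among them had 20 and 42 counts against 759 and 1237. Of the 6, the 4 that were tested were higher in both dura libraries, as were 26.2% of all genes tested. Lum and Pdgfra, named after their values were seen, had at most 4 and 1 counts in each library. The 6 markers of platelets and megakaryocytes summed to 130 and 0.680 CPM against 121 and 33.3 CPM, with 4, 2, 2 and 3 of them over 3 counts, and the platelet gene Pf4 had 10 and 5 counts against 3 and 76. Thus the fibroblast sum was higher in both dura libraries, as Angpt1 was, and the mural and platelet sums overlapped between tissues. Acta2, named after its values were seen, was the largest part of the mural sum in each library (344 and 805 CPM in brain, 565 and 224 CPM in dura ECs). Single mural markers differed from their sum. Where 26.2% of all genes tested were higher in both dura libraries and 16.9% lower, 5 of the 12 were higher and 1 was lower. The 5, named after their values were seen, were Kcnj8, Anpep, Cspg4, Notch3 and Tagln. Kcnj8 had 0 and 0 counts in brain against 468 and 410 in dura ECs, and Anpep 1 and 2 against 689 and 1627. Cspg4 had 0 and 1 against 263 and 65, and Notch3 5 and 0 against 99 and 254. Tagln had 772 and 57 against 2418 and 1170. All but Tagln passed the filter on low counts through the dura libraries alone, so that their being higher there carries no weight. Kcnj8, Cspg4 and Tagln were higher in dura replicate 1, as Angpt1 was, and Anpep and Notch3 in replicate 2. Des was the lower one (1056 and 1350 against 412 and 284). Within the dura, Angpt1 was higher in replicate 1 while the fibroblast sum was nearly equal in both. The part of these cells in the Angpt1 counts was not tested.

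**Figure D3:**
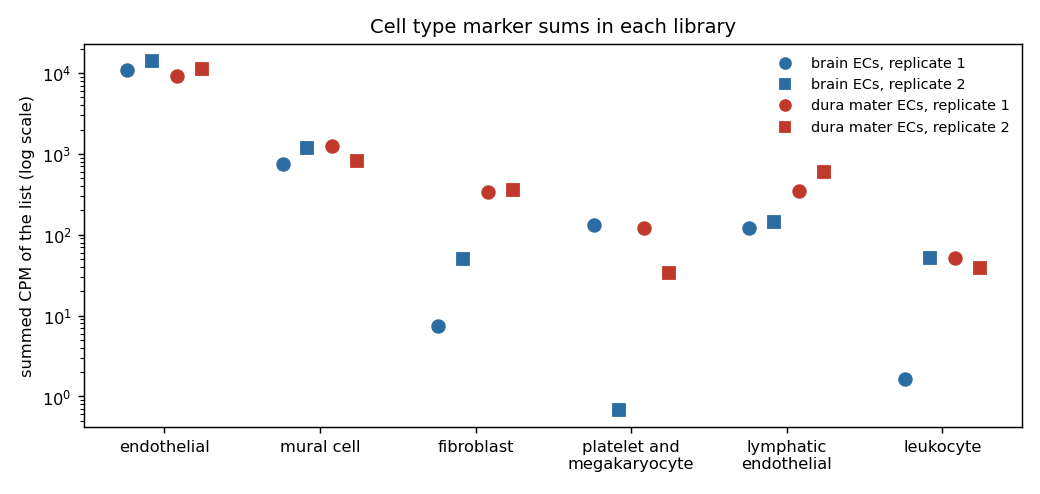
Summed CPM of 6 cell type marker lists (log axis) in each library; blue is brain, red is dura, circles are replicate 1 and squares replicate 2. Endothelial markers summed to 9196 to 13933 CPM in all 4 libraries, while fibroblast markers were at 337 and 354 CPM in dura ECs against 7.38 and 50.7 CPM in brain ECs.

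Angpt2 (chromosome 8, 18690263 to 18741562, minus strand) had 0 and 459 counts in brain replicates 1 and 2, and 199 and 1903 counts in dura replicates 1 and 2. The corresponding levels were 0, 34.7, 14.8 and 116.6 CPM, so that brain replicate 2 lay above dura replicate 1 and the groups overlapped. The dura libraries differed by 7.86 times. The mean was 17.3 ± 24.5 CPM in brain and 65.7 ± 71.9 CPM in dura ECs (SD, n = 2), a log2 fold change of 1.91 ± 2.73 (SE) at an adjusted p of 1.00 in edgeR. Which libraries entered decided this value. Without brain replicate 2 it was 8.87, against a brain arm of 1 library at 0 counts. Without dura replicate 2 it was −0.25. With all 4 libraries the adjusted p lay between 0.484 and 1.00 over the tests, scalings and filters tried. Angpt2 was thus 1 of the 673 symbols with at least 100 counts in brain replicate 2 and 0 in brain replicate 1. In the dura the balance of the ligands also differed between libraries, with 0.926 Angpt2 counts for each Angpt1 count in replicate 1 and 56.0 in replicate 2. The 6 markers of lymphatic ECs, which also make Angpt2, had 1, 2, 4 and 6 members over 3 counts and summed to 123 and 145 CPM in brain and to 348 and 603 CPM in dura ECs. Prox1, the defining lymphatic transcription factor among them, had 0 counts in either brain library and 492 and 125 in the dura libraries. The highest lymphatic sum and the highest Angpt2 level fell in the same library, dura replicate 2, where Prox1 was the lower of the dura pair. The other lymphatic markers, named after their values were seen, were higher in dura replicate 2 than in replicate 1. These were Lyve1 (911 and 1776 counts in dura replicates 1 and 2), Ccl21a (883 and 3378), Flt4 (2384 and 4018), Reln (0 and 502) and Pdpn (3 and 45). Nearly all of the brain sum was Flt4 (123 and 144 CPM). Abcc9, a listed mural cell marker and a near profile of Angpt2 (below), had 0 and 404 counts in brain and 108 and 1384 in dura ECs. Pdgfrb was also highest in dura replicate 2 (2038 counts), whereas the mural sum was highest in dura replicate 1 (1266 CPM). The part of lymphatic ECs or mural cells in Angpt2 was not tested.

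**Figure D4:**
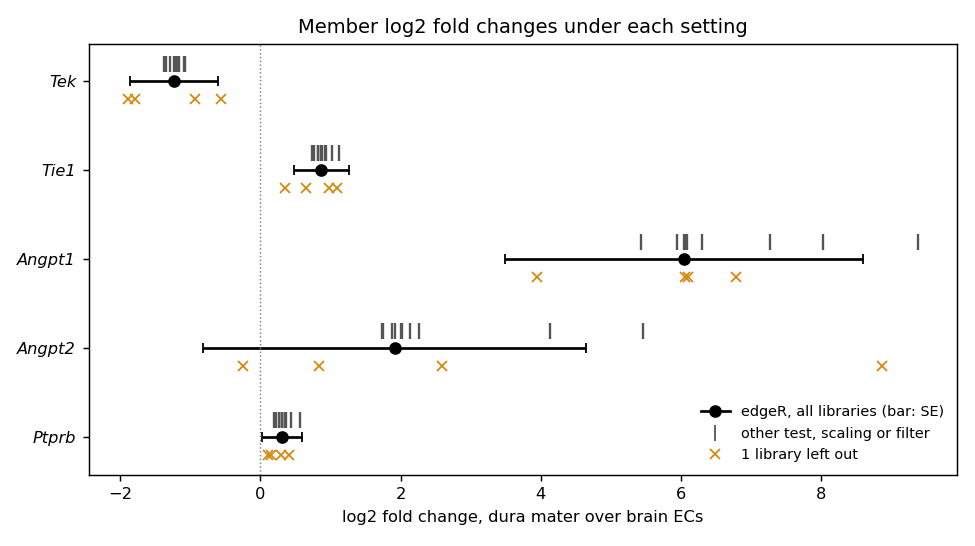
Log2 fold change of dura over brain ECs for each gene: black points with SE bars are the edgeR fit to all 4 libraries, grey ticks other tests, scalings, filters or a replicate block, and orange crosses fits without 1 library. Tek stayed below 0 (−1.89 to −0.56) and Tie1 and Ptprb above 0, while Angpt2 ran from −0.25 to 8.87 depending on the library left out.

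The genes whose profile over the 4 libraries was most like that of each member were found by the Euclidean distance of centred log2 CPM, among 7997 genes with a mean of at least 10 CPM (7998 for Angpt1). For Tek these were Cap1, an actin regulator (distance 0.14), Vps13d (0.19) and Psmd8, a proteasome subunit (0.20). For Tie1 they were Cnn3, a calponin (0.08), Rpia (0.09) and Uso1 (0.16). For Ptprb they were Rps7, a ribosomal protein (0.09), Dusp3 (0.09) and Tapbp (0.09). The distances were larger for the ligands: for Angpt1 the nearest were Xrn1 (0.59), Agfg2 (0.67) and Ezh2 (0.70). For Angpt2 they were Vopp1 (0.53), the mural cell marker Abcc9 (0.66) and Arrb1 (0.80). None of the 15 was another member of the system. With 4 libraries such a likeness is a description only.

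Around the receptors, 12 genes for further ligands and extracellular partners were listed, 9 of which were tested. edgeR called 0 of them, with 3 at an unadjusted p under 0.05, all higher in dura ECs, as were 7.04% of all genes tested. The median log2 fold change was 0.56 (7 above 0, 2 below), against −0.01 over all genes. The further ligand genes Angpt4, Svep1 and Lect2 had 0 counts in each library. Mmp14, a membrane-bound matrix protease that can shed receptors, had 3 and 7 counts in brain against 1446 and 2099 in dura ECs (edgeR adjusted p 0.126). edgeR called it with the newer dispersion estimate (adjusted p 0.0279) and with no filter on low counts (0.00434). These settings called 305 of 9347 and 326 of 13660 genes tested. Mmp14 did not pass with the replicate block or endothelial marker scaling (edgeR adjusted p 0.0689 and 0.0786). Under the remaining scalings its edgeR adjusted p lay between 0.101 and 0.137. Without 1 library its log2 fold change lay between 7.42 and 8.38. The integrin subunit Itgb3 had 0 counts in either brain library against 727 and 607 (edgeR adjusted p 0.396). Against a floor of 3 counts per brain library (for counting error only), its dura mean was at least 211-fold higher, and dura replicate 2 at least 171-fold. Itga5, the partner of beta1 integrin in the fibronectin receptor, had 0 and 0 against 182 and 351 (edgeR adjusted p 0.466). Against the same floor its dura mean was at least 80.9-fold higher, and dura replicate 1 at least 62.6-fold. DESeq2 called Mmp14, Itgb3 and Itga5, where it called 12.3% of all genes with an adjusted p. limma-voom called 0 of the 9, with the same 3 under an unadjusted p of 0.05, as were 15.1% of all genes. These shares, and 21.0% under an unadjusted p of 0.05 in DESeq2, also stand beside the lists below. The 3 genes, at 7 brain counts or fewer, passed the filter on low counts through the dura libraries alone. Adam17, a protease that sheds many receptors, was at 229 and 123 CPM in brain against 51.4 and 69.9 CPM in dura ECs, a log2 fold change of −1.54 ± 0.71 (SE) at an adjusted p of 0.496 in edgeR; antisense exons overlap 4.35% of its exon bases.

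Of 26 adaptors and effectors below Tie2, 22 were tested and edgeR called 0. At an unadjusted p under 0.05, 1 was lower in dura ECs, as were 2.97% of all genes tested. The median log2 fold change of the list was −0.14 (8 above 0, 14 below). The gene under an unadjusted p of 0.05 was Grb7, an adaptor that binds phosphorylated Tie2, with 1805 and 805 counts in brain against 2 and 81 in dura ECs, a log2 fold change of −5.10 ± 2.10 (SE) at an adjusted p of 0.466 in edgeR. Leaving out 1 library gave a log2 fold change between −8.31 and −4.32. DESeq2 called Grb7 alone of this list, and limma-voom called 0, with 3 under an unadjusted p of 0.05. Tnip2, an inhibitor of NF-kappaB that binds Tie2, was at 161 and 66.2 CPM against 48.7 and 49.1 CPM, and the scaffold gene Iqgap1 was at 675 and 656 CPM against 568 and 396 CPM. Neither difference passed (edgeR adjusted p 0.862 and 0.875).

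Of 14 FOXO target genes, a list to which the flow-responsive factors Klf2 and Klf4 were added, 11 were tested and edgeR called 0. At an unadjusted p under 0.05, 1 was higher in dura ECs, as were 7.04% of all genes tested. The median log2 fold change was 0.74 (8 above 0, 3 below). Klf4 was at 675 and 589 CPM in brain against 1154 and 1385 CPM in dura ECs, a log2 fold change of 1.01 ± 0.31 (SE) at an adjusted p of 0.391 in edgeR. Klf2, its close relative, was at 2135 and 2389 CPM against 1647 and 1989 CPM (edgeR adjusted p 0.929), so that the pair differed in sign. Txnip, a thioredoxin inhibitor, was at 750 and 377 against 899 and 1088 CPM, and Gadd45a, a stress gene, at 26.1 and 0.0756 against 95.3 and 41.5 CPM (edgeR adjusted p 0.567 and 0.969). The log2 fold change of Gadd45a moved from 2.37 to 8.31 without brain replicate 1 and to 1.34 without brain replicate 2. Antisense exons overlap 19.4% of the exon bases of Txnip and 19.1% of those of Gadd45a. DESeq2 and limma-voom called 0 of the list, with 1 and 2 genes under an unadjusted p of 0.05.

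The angiopoietin-like genes encode secreted proteins that resemble angiopoietins but do not bind Tie2. Of 7 listed, 2 were tested, and these pointed in opposite directions. Angptl4, an inhibitor of lipoprotein lipase, was at 257 and 104 CPM in brain and at 43.8 and 14.9 CPM in dura ECs. Its log2 fold change was −2.61 (SE 0.95), and it lay between −3.72 and −1.85 without 1 library. Angptl2 had 0 counts in either brain library and 416 and 385 counts in dura ECs. Against a floor of 3 counts per brain library (for counting error only), its dura mean was at least 126-fold higher, and dura replicate 2 at least 109-fold. edgeR called 0 of the 2 (adjusted p 0.466 for each). Both were under an unadjusted p of 0.05, as were 7.04% of all genes tested as higher and 2.97% as lower. DESeq2 called Angptl2, and limma-voom called 0 with Angptl2 under an unadjusted p of 0.05. Angptl2 passed the filter on low counts through the dura libraries alone.

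The other receptor-type tyrosine phosphatases form the family of VE-PTP. Of 19 listed, 11 were tested and edgeR called 0. At an unadjusted p under 0.05, 1 was higher and 1 lower in dura ECs, as were 7.04% and 2.97% of all genes tested. The median log2 fold change was −0.27 (4 above 0, 7 below). Ptprg was at 1294 and 784 CPM in brain and at 389 and 360 CPM in dura ECs, a log2 fold change of −1.47 ± 0.38 (SE) at an adjusted p of 0.272 in edgeR. DESeq2 called it (adjusted p 0.00921), as did edgeR with the newer dispersion estimate (0.0217) and with no filter on low counts (0.0252). Ptprg did not pass with the replicate block (edgeR adjusted p 0.0745) or with at least 10 counts in every library (0.0946). Under the other scalings its edgeR adjusted p lay between 0.272 and 0.481, highest with endothelial marker scaling. Without 1 library its log2 fold change lay between −1.85 and −1.11. Ptpru was at 32.4 and 7.18 CPM against 206 and 118 CPM, and its log2 fold change was 3.02 ± 1.07 (SE) at an adjusted p of 0.466 in edgeR. Without 1 library this fold change lay between 2.27 and 4.43. Ptpre had 2 and 3 counts in brain against 129 and 274, and Ptprf had 8 and 6 against 267 and 395 (edgeR adjusted p 0.595 and 0.635). Thus Ptprb, with log2 fold change 0.30, lay within a family whose members differed in sign. limma-voom called 0 of the 11, with Ptprg under an unadjusted p of 0.05.

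**Figure D5:**
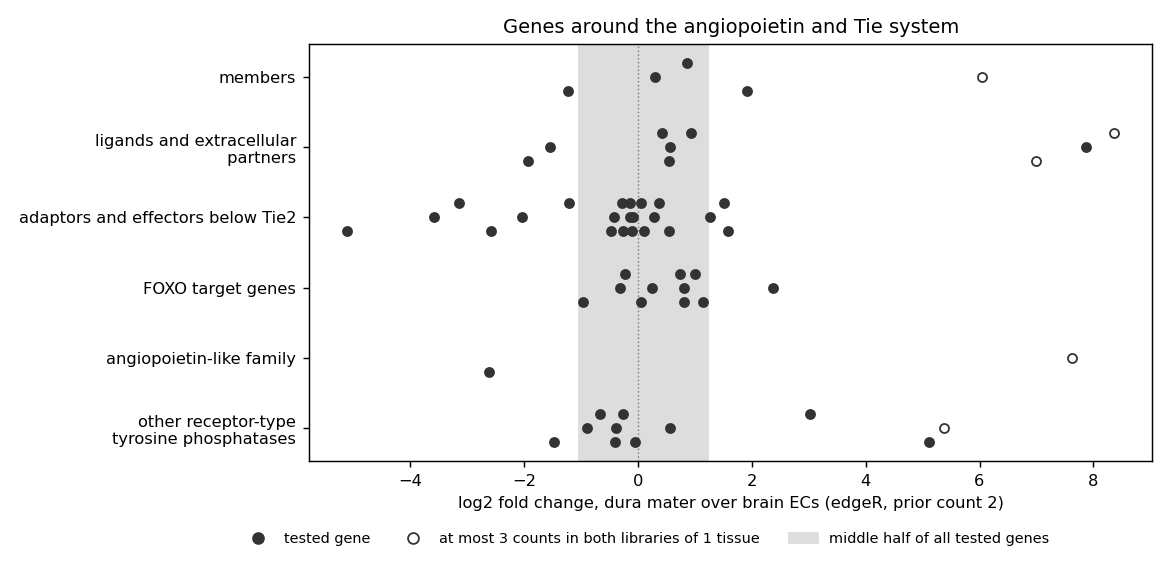
Log2 fold change of dura over brain ECs for each tested gene of the 6 lists (points, staggered for legibility); open points had at most 3 counts in both libraries of 1 tissue, so that their position depends on the prior count, and the grey band spans the 25th to 75th percentile of all genes tested. Adaptors and effectors centred near 0 (median −0.14), and edgeR called none of the plotted genes.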

How the data were processed

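Each library has a table, deposited by the authors, of unscaled whole-number counts for 23282 gene symbols. The labels name a Quant-Seq kit, Bowtie2, edgeR and the build mm10, whereas the methods of the study name TopHat and cufflinks; the counting tool, annotation, use of strand and molecular identifiers are not given in the sources used here. The catalogue number given with the kit may belong to another kit, so that whether reads cover 3′ ends or whole transcripts, and hence how far counts follow length or antisense overlap, is not settled here. Groups and replicate numbers were taken from sample titles. Counts were tested across all genes with edgeR 4.0.16 in R 4.3.3 (quasi-likelihood test, TMM scaling, filterByExpr, tissue as the only term, prior count of 2, Benjamini-Hochberg adjustment over 9347 genes); cufflinks needs alignments, which were not used here. The SE was derived from the fold change and its F statistic. DESeq2 1.42.0, limma-voom (limma 3.58.1), other scalings, filters and dispersion estimates, a replicate block, endothelial marker scaling and leaving out each library were alternatives. The scripts were tested on simulated data. Ratios had 0.5 added to each count (permutation tests in scipy 1.17.1). Positions are from GENCODE on GRCm38, the assembly of mm10. The genes, lists and tests were chosen with earlier results of these data known. Named were the 5 genes, the defining markers of other cell types, from each list the genes called by edgeR or otherwise the 4 with the smallest p, and the 3 nearest profiles of each gene. A gene that this rule names is not reported here.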

Additional observations from a re-analysis of the deposited data

How the results depend on the processing

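Tek, Tie1, Ptprb and Angpt1 kept their direction under each of their 15, 15, 15 and 14 alternatives. The fit to genes with at least 10 counts in every library could not be made for Angpt1 and Angpt2. No member passed in a fit to all 4 libraries. Without 1 library the log2 fold change of Tek ranged from −1.89 to −0.56. That of Angpt2 ranged from −0.25 to 8.87 and was reversed, at −0.25, without dura mater replicate 2. A fit without 1 library assumes that the lone library of a tissue varies like the others, so that for members only its effect size is given. Such fits without a brain library also moved the median log2 fold change of all genes tested to 0.95 and 1.03. Upper-quartile and endothelial marker scaling moved it to 0.13 and 0.27, against −0.01. Against Pecam1 and Cdh5 alone, the log2 differences of Tie1, Ptprb and Tek per endothelial count moved to 0.26, −0.25 and −1.77. The count of genes differing, 57 in edgeR, was 1259 in DESeq2 (886 higher, 373 lower), 326 when no gene was filtered out, 141 with at least 10 counts in every library, 224 with the replicate block, 305 with the newer dispersion estimate, and 80 to 740 without 1 library. The cause of these shifts was not tested. With the replicate number as a block, no member passed (Tek −1.21, Tie1 0.82, Angpt1 5.43, Angpt2 4.13, Ptprb 0.31). Same-numbered libraries are known to share only a number. Their deviations had a correlation of −0.0208 across genes, which cannot show whether they were paired, since replicates differed widely. Each tissue had 2 libraries, and the effect of depth was not tested.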
